A study of Mus musculus with 6 samples.

Results

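Aminoacyl-tRNA synthetases join each amino acid to its own tRNA, and their genes were compared between mouse T cell acute lymphoblastic leukemia (T-ALL) cells labelled Klf4-deficient and control cells. The members were chosen by gene symbol alone: an amino acid letter from a fixed set followed by "ars", with or without a final 1 or 2, plus Farsa, Farsb and Fars2. This gave 33 genes, on 71 probes, of the 19057 genes tested. Symbols ending in 2 mark the mitochondrial enzymes (15 genes, 29 probes), and the other 18 genes (42 probes) are called cytosolic here. Eprs and Pars2 belong to the family but escape the symbol rule, so they are described apart.

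Each of 6 RNA samples was hybridised to its own Illumina array. The Klf4-deficient arrays (3, labelled knock out) and the control arrays (3, labelled wild type) came from leukemias that both carried NOTCH1 as the inducing oncogene and GFP as the sorted mark. All mice were labelled male, and GFP-positive cells with CD4 and CD8 were sorted from bone marrow at 4 weeks after transplantation. The Klf4 allele, any Cre driver, the age and strain of the mice, and whether the 3 samples of a group came from separate animals are not stated in the labels. The p-values therefore reflect how far samples of a group scatter, and that scatter may be technical.

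Klf4 itself, the transcription factor named in the labels, gave 80.6, 46 and 85.4 units of signal in the arrays labelled Klf4-deficient, against 44, 18.4 and 24.6 in control arrays. Of 3 Klf4 probes only this brightest one rose above background. It did so on 5 of 6 arrays and not on control array 2, so its signal is near the floor. The log2 difference was 1.03 ± 0.33 (SE, adjusted p = 0.576 from limma), and the position of the probe relative to any deleted part is unknown. The direction of every difference below therefore rests on the labels. Array means lay between 359 and 432 in the arrays labelled Klf4-deficient and between 417 and 445 in the controls, and the lowest was Klf4-deficient array 3. The T cell genes Cd3e, Cd3d, Cd3g, Cd8b1, Cd4, Rag1, Rag2, Ptcra and Dntt lay above background on all 6 arrays, while the Cd8a probe did so on 1 of 3 arrays labelled Klf4-deficient and on 3 of 3 controls. Precision is limited by the small number of arrays.

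Each synthetase first activates its amino acid with ATP and then transfers it to the tRNA, so protein synthesis in the cytosol and in the mitochondrion both depend on the family. Most amino acids have 1 enzyme for each compartment, made from separate nuclear genes, while Gars (glycine) and Kars (lysine) each serve both compartments from a single gene. Several cytosolic enzymes sit together in a multisynthetase complex held by the scaffold proteins Aimp1, Aimp2 and Eef1e1. Many cytosolic synthetase genes are known targets of Atf4, the transcription factor of the amino acid response, which binds elements of the form TGATGNAA together with a C/EBP partner.

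Promoters holding that element are shown because it is a feature some cytosolic members share and the symbol rule did not use. RefSeq promoters (assembly GRCm38.p6, from 250 bases before to 50 after the start, 300 bases in all) were found for 25 of the 33 members, 11 cytosolic and 14 mitochondrial. TGATGNAA on either strand was present in 5 of 11 cytosolic genes (45.5%) and in 0 of 14 mitochondrial genes, beside 1219 of all 27025 genes with a promoter (4.51%). The E-box CACGTG, which reads the same on both strands, was present in 4 of 11 cytosolic genes (36.4%), namely Aars, Iars, Farsb and Tars, in 1 of 14 mitochondrial genes (Ears2, 7.14%) and in 8.09% of all genes. In Aars, Iars and Tars, which hold both motifs, the first E-box began at -146, -69 and 19 and did not overlap the element. A match describes the letters alone. The windows around the element are printed 5′ to 3′ on the gene's strand for the 4 members above background, with the element in capitals.
Aars (chr8:111033705-111033883, + strand): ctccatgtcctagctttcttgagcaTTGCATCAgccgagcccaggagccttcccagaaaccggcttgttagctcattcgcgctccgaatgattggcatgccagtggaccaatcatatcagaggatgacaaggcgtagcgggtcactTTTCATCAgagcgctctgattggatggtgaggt
Gars (chr6:55037946-55038003, + strand): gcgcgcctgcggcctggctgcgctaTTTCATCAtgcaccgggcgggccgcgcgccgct
Iars (chr13:49682112-49682169, + strand): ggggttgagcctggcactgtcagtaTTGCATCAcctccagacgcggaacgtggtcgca
Tars (chr15:11399641-11399698, - strand): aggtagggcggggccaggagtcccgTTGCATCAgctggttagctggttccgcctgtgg
Aars (alanine) carried 2 copies, beginning at positions -112 and 9 with the start base as 0, while Gars carried 1 at -30, Iars (isoleucine) 1 at 7 and Tars (threonine) 1 at -15. The fifth gene, Yars (tyrosine), carried 1 at 3 and lay below background.

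Differences in synthetase transcripts between the arrays labelled Klf4-deficient and the controls were small. In limma, 0 of 33 members passed an adjusted p of 0.05, where 2 of all 19057 genes did (0.0105%), and the lowest adjusted p among the members was 0.452. At an unadjusted p under 0.05, 1 member was lower (Lars) and 0 were higher, beside 4.1% lower and 3.49% higher of all genes. The log2 differences of the members ran from -0.26 to 0.22, with a median of -0.03 where the median of all genes was 0. Above background by their mean over all 6 arrays, a limit of 21.8 to 23.7 units that varies by array, were 29 of the 33 members, each of them on all 6 arrays. Yars, Hars2, Nars2 and Yars2 lay below the limit on all arrays and are given no fold.

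Under quantile normalization most of the intervals were narrow. The 95% interval of the log2 difference, not adjusted for the number of genes, lay within ± 0.5 (a 1.41-fold change) for 25 of the 29 members above background and within ± 1 (a 2-fold change) for all 29. The 4 wider ones were Farsa, Vars, Cars and Iars2. These intervals rest on the scatter within groups under that scaling, and with no normalization the differences of Iars2 and Lars were -0.38 and -0.23. Within ± 0.25 (1.19-fold) lay the intervals of 11 members, 8 cytosolic and 3 mitochondrial.

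**Figure D1:**
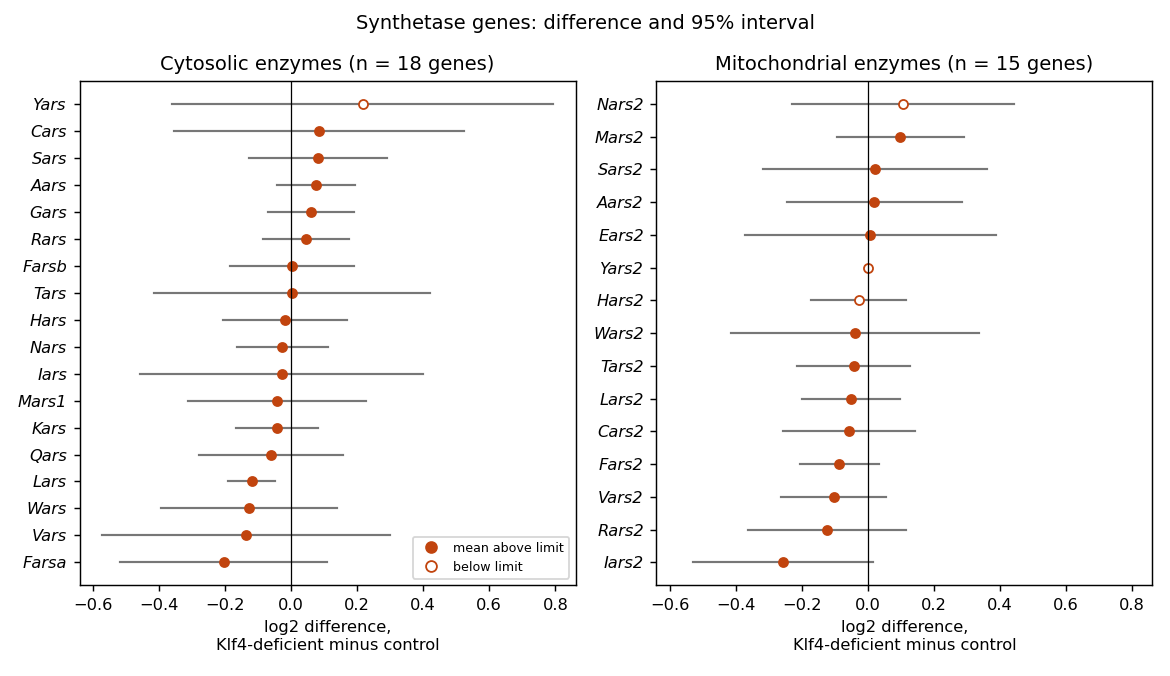
Log2 differences (Klf4-deficient minus control, x axis) of the 18 cytosolic and 15 mitochondrial synthetase genes, with 95% intervals as lines, filled points for genes whose mean lay above the background limit and open points for those below. Every interval but that of Lars, and every interval among the mitochondrial enzymes, spans 0.

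In 4 members the arrays labelled Klf4-deficient were all lower than the controls, and in 0 they were all higher. Over all genes tested 6.11% had all labelled-deficient arrays lower and 5.45% had them all higher beside 4 of 33 members (12.1%) lower. Among the 9208 genes above background by their mean the share was 9.64% lower and 7.71% higher, beside 4 of 29 members (13.8%) lower. Over single probes, 0 of 71 passed when adjusted over all 45281, of which 0.00442% passed, and the arrays labelled Klf4-deficient were all lower for 7 member probes (5.26% of all probes) and all higher for 1 (4.29%). The 4 genes were Lars and Farsa among the cytosolic and Iars2 and Vars2 among the mitochondrial enzymes. With an array left out, groups separate more easily in any gene, so the shares above do not apply to the counts that follow. The lower count was 7 without Klf4-deficient array 1 and 9 without control array 2. The higher count was 4 without Klf4-deficient array 2, 3 without Klf4-deficient array 3, 1 without control array 2 and 2 without control array 3. With arrays centred on their median 0 members had all labelled-deficient arrays lower, so the separation in these 4 genes held under quantile normalization and not under that scaling, and with no normalization the count was 2.

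Lars, the leucyl-tRNA synthetase of the multisynthetase complex, had the most regular difference under quantile normalization. Its normalized log2 signal was 11.24, 11.33 and 11.30 in the arrays labelled Klf4-deficient, against 11.41, 11.41 and 11.42 in the controls. After that normalization the 3 controls lay almost on one value, and every labelled-deficient array was below them. The deposited signals of this probe overlapped, at 2431.8, 2680.9 and 2109.5 in the arrays labelled Klf4-deficient and 2856, 2664.5 and 2903.6 in the controls. The normalized difference was -0.12 ± 0.03 (SE, fold 0.92, adjusted p = 0.452 from limma), with a 95% interval from -0.19 to -0.05. Its other probe differed by -0.15 ± 0.07, with all labelled-deficient arrays lower there too, and both probes read the same RNA extracts.

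Farsa encodes the alpha subunit of the cytosolic phenylalanyl-tRNA synthetase, a tetramer with the beta subunit from Farsb. The log2 signal of Farsa was 7.36, 7.29 and 6.97 in the arrays labelled Klf4-deficient and 7.46, 7.37 and 7.39 in the controls, so Klf4-deficient array 3 stood lowest. The difference was -0.20 ± 0.12 (SE, adjusted p = 0.787 from limma), -0.09 without Klf4-deficient array 3 and 0.07 with the erythroid and macrophage marker score as a covariate. That score was higher in every array labelled Klf4-deficient than in any control. Fits with it, here and below, therefore separate it poorly from the label. Farsb, its partner, had log2 signals of 11.78, 11.68 and 11.75 in the arrays labelled Klf4-deficient and 11.80, 11.59 and 11.81 in the controls. Its difference was 0.003 ± 0.07, and the differences of its 2 probes were 0.0098 apart.

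The enzymes whose genes carry the Atf4-type element lay on both sides of 0. Aars had log2 signals of 10.78, 10.74 and 10.84 in the arrays labelled Klf4-deficient and 10.64, 10.76 and 10.73 in the controls, which overlapped. Its difference was 0.08 ± 0.04 (SE, adjusted p = 0.787, 95% interval -0.04 to 0.19). Gars had 13.22, 13.06 and 13.09 in the arrays labelled Klf4-deficient and 13.05, 13.06 and 13.09 in the controls, and only Klf4-deficient array 1 stood above the rest. The difference of Gars was 0.06 ± 0.05, and with arrays centred on their median Gars lay at -0.04 and Aars at -0.0061. At the reported scaling the difference of Gars stood beside -0.03 ± 0.16 for Iars and 0.002 ± 0.16 for Tars. The median of these 4 was 0.03, while the 6 cytosolic genes with a promoter and no element (Farsa, Sars, Kars, Qars, Mars1 and Farsb) had a median of -0.04, from -0.20 to 0.08.

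Among the other cytosolic enzymes the groups overlapped in each gene. Wars, the tryptophanyl enzyme, which interferon gamma induces in human cells, had log2 signals of 9.79, 9.58 and 9.46 in the arrays labelled Klf4-deficient and 9.64, 9.79 and 9.78 in the controls. Its difference was -0.13 ± 0.10 (SE, adjusted p = 0.787), and its 4 probes above background ran from -0.13 to 0.01. Sars, the seryl enzyme, had 9.74, 9.54 and 9.73 in the arrays labelled Klf4-deficient and 9.52, 9.54 and 9.70 in the controls, with a difference of 0.08 ± 0.08. The dimmer Sars probe went the other way, at -0.18 ± 0.12. Vars, the valyl enzyme, spread more than any other member above background but Cars: it had 11.11, 10.76 and 10.49 in the arrays labelled Klf4-deficient and 10.86, 10.98 and 10.92 in the controls. Its 3 probes all lay below 0, from -0.30 to -0.14, with SEs between 0.16 and 0.25. Leaving out Klf4-deficient array 1 gave Vars -0.30, leaving out Klf4-deficient array 3 gave 0.01, and the marker score as a covariate gave 0.24. Yars, Cars (cysteine, 0.08 ± 0.17), Nars (asparagine, -0.03 ± 0.05) and Hars (histidine, -0.02 ± 0.07) complete the enzymes outside the complex.

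Within the multisynthetase complex, 5 of 6 members lay below 0 and the median was -0.04 on the log2 scale. Outside it, 5 of 12 cytosolic genes lay below 0 and the median was 0.002, while 52.1% of all genes above background lay below 0. With the marker score as a covariate Lars lay at -0.16, but Kars at 0.0051, Mars1 at 0.08, Qars at 0.14, Rars at 0.15 and Iars at 0.18. The score was higher in every array labelled Klf4-deficient, so these values separate it poorly from the label. When the probes of each gene were averaged, Lars and Kars lay below 0, at -0.13 and -0.12, and the other members of the complex above it. That average includes probes below background. For Qars such a probe differed by 0.35, while its 3 probes above background ran from -0.06 to 0.02. Read from the brightest probe, the complex members besides Lars were Qars (glutamine, -0.06 ± 0.08), Kars (-0.04 ± 0.05), Mars1 (methionine, -0.04 ± 0.10), Iars (-0.03 ± 0.16) and Rars (arginine, 0.04 ± 0.05). Kars had log2 signals of 10.72, 10.67 and 10.60 in the arrays labelled Klf4-deficient and 10.64, 10.76 and 10.73 in the controls. Rars had 10.29, 10.29 and 10.13 in the arrays labelled Klf4-deficient and 10.20, 10.18 and 10.19 in the controls, and again Klf4-deficient array 3 was the lowest of the 6. Mars1 had 9.68, 9.57 and 9.64 in the arrays labelled Klf4-deficient and 9.88, 9.56 and 9.57 in the controls, and its other probe differed by 0.09 ± 0.09, so the 2 probes disagreed in sign. Eprs, the Glu-Pro enzyme of the complex outside the symbol rule, had 9.01, 8.67 and 8.41 in the arrays labelled Klf4-deficient and 8.76, 8.53 and 8.96 in the controls (-0.05 ± 0.20).

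**Figure D2:**
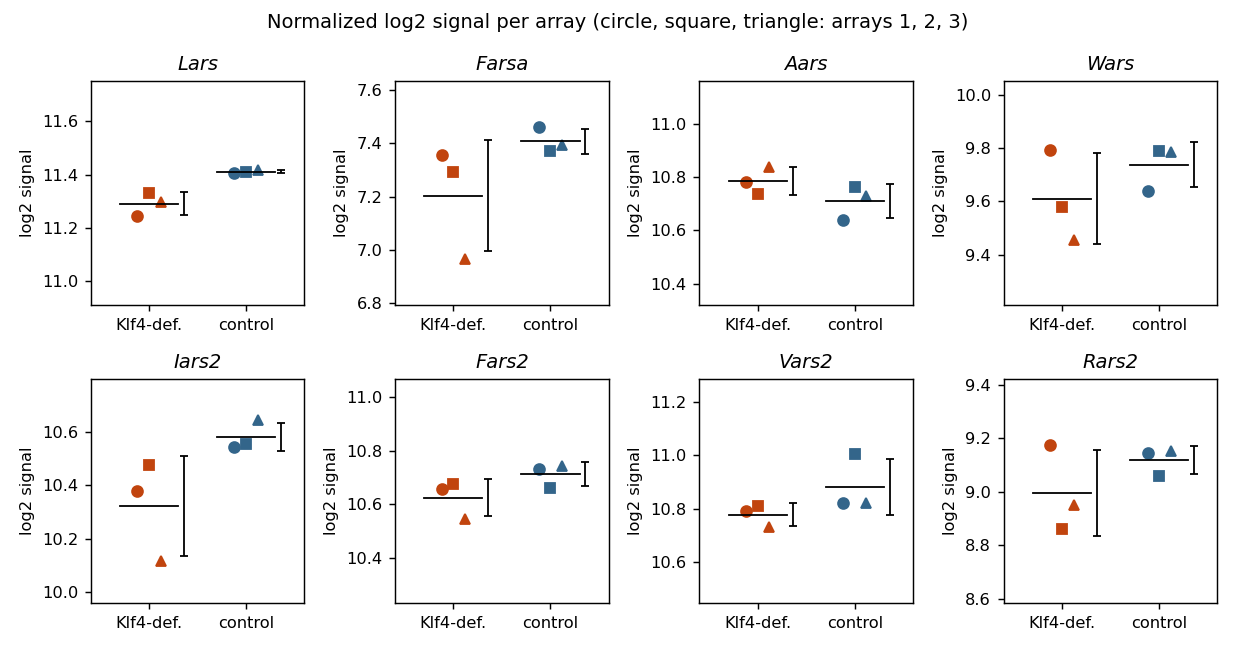
Normalized log2 signal (y axis, each panel spanning the same range) in 3 Klf4-deficient arrays (left, red) and 3 control arrays (right, blue) for the 4 cytosolic and 4 mitochondrial members above background with the smallest unadjusted p, with bars for means and whiskers for SDs. Lars controls lie between 11.41 and 11.42, and Klf4-deficient array 3 (triangle) is the lowest of all 6 arrays for Farsa, Wars, Iars2, Fars2 and Vars2.

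Iars2, the mitochondrial isoleucyl enzyme, had the lowest difference of the family. Its log2 signal was 10.38, 10.48 and 10.12 in the arrays labelled Klf4-deficient, against 10.54, 10.56 and 10.64 in the controls, with no overlap. The difference was -0.26 ± 0.10 (SE, fold 0.84, adjusted p = 0.684), and its 95% interval ran from -0.53 to 0.01. Its other probe differed by -0.24 ± 0.12, also with no overlap. Without Klf4-deficient array 3 the difference was -0.15, and with the marker score as a covariate it was -0.10.

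Other mitochondrial enzymes differed by less. Vars2 (valine) had log2 signals of 10.79, 10.81 and 10.73 in the arrays labelled Klf4-deficient and 10.82, 11.00 and 10.82 in the controls (-0.10 ± 0.06 SE, adjusted p = 0.787). The groups were apart by a narrow gap, and the difference was -0.04 without control array 2, the highest of the 6. Fars2 (phenylalanine), which works as a single chain unlike its cytosolic counterpart, had 10.66, 10.67 and 10.54 in the arrays labelled Klf4-deficient and 10.73, 10.66 and 10.74 in the controls (-0.09 ± 0.05). Rars2 (arginine) had 9.17, 8.86 and 8.95 in the arrays labelled Klf4-deficient and 9.15, 9.06 and 9.15 in the controls (-0.13 ± 0.09), and its 3 probes above background all lay below 0. Mars2 (methionine) was the highest of those above background, with 8.021, 7.999 and 7.825 in the arrays labelled Klf4-deficient and 7.843, 7.780 and 7.929 in the controls (0.10 ± 0.07). Lars2 (leucine) had 8.93, 8.76 and 8.92 in the arrays labelled Klf4-deficient and 8.95, 8.88 and 8.94 in the controls (-0.05 ± 0.06).

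The rest of the mitochondrial enzymes above background, Cars2, Tars2, Wars2, Aars2, Sars2 and Ears2, lay between -0.06 and 0.02. Cars2 (cysteine) had 9.43, 9.37 and 9.18 in the arrays labelled Klf4-deficient and 9.36, 9.36 and 9.45 in the controls. The 2 Cars2 probes above background both lay below 0, at -0.06 and -0.24. Pars2, the mitochondrial prolyl enzyme outside the symbol rule, had 7.61, 7.57 and 7.37 in the arrays labelled Klf4-deficient and 7.76, 7.86 and 7.62 in the controls. All labelled-deficient arrays were lower, and the difference was -0.23 ± 0.10 (SE, adjusted p = 0.720).

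The cytosolic and mitochondrial enzymes had near medians. For the 18 cytosolic genes the median was -0.02 on the log2 scale (8 above 0 and 10 below), and for the 15 mitochondrial genes it was -0.04 (5 above, 9 below and 1 at 0). Cytosolic minus mitochondrial, the medians of single arrays were 0.05, -0.02 and -0.02 in the arrays labelled Klf4-deficient and -0.003, 0.04 and -0.03 in the controls, so the groups overlapped. The mean of the labelled-deficient arrays minus that of the controls was 0.005, where the SD between arrays of a group was 0.04, and it was 0.05 without control array 1. By the family's structural classes, the 18 class I members had a median of -0.05 with 12 below 0, and the 15 class II members a median of 0.002 with 7 below 0. The spread of single genes between arrays was also alike, with a median within-group SD of 0.10 for the 17 cytosolic and 0.11 for the 12 mitochondrial members above background. The lowest SDs were those of Lars (0.03) and Aars (0.06), and the highest those of Cars, Vars and Iars (each 0.22).

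Pairing the enzymes of 1 amino acid gave 12 pairs with both genes above background, Fars2 counting with both Farsa and Farsb. The cytosolic member was the more positive in 7 pairs and the mitochondrial member in 5, with a median gap of 0.05. The widest gap was between Iars and Iars2 (0.23), and the widest in the other direction between Mars1 and Mars2 (-0.14). The log2 ratio of the cytosolic to the mitochondrial signal overlapped between the groups in all 12 pairs.

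**Figure D3:**
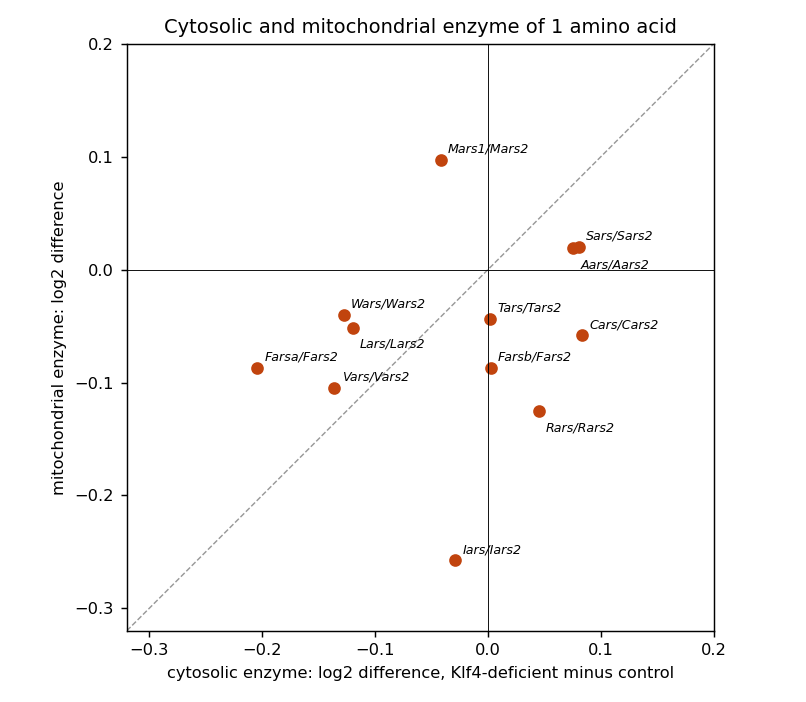
Log2 difference (Klf4-deficient minus control) of the cytosolic enzyme (x axis) against that of the mitochondrial enzyme for the same amino acid (y axis) in 12 pairs above background, with the dashed line marking equal differences. Points lie on both sides of the line, 7 below it and 5 above, and Iars/Iars2 and Mars1/Mars2 lie far from it.

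Array levels varied by amounts near the size of these differences. Of the 29 members above background, 11 (37.9%) had their lowest value in Klf4-deficient array 3, as did 29.8% of all genes above background. The highest value was in Klf4-deficient array 1 for 8 members and in control array 1 for 7. The cytosolic medians, relative to the control mean, were 0.06, -0.06 and -0.04 in the arrays labelled Klf4-deficient and -0.01, -0.006 and 0.02 in the controls, and the mitochondrial medians were 0.007, -0.04 and -0.03 in the arrays labelled Klf4-deficient and -0.008, -0.04 and 0.05 in the controls. With no normalization Klf4-deficient array 3 lay at -0.30 for the cytosolic and -0.26 for the mitochondrial members, and at -0.28 for all genes above background. That choice moved the median of all genes above background to -0.11 (-0.08 with arrays centred on their median). Relative to it, the median of all 18 cytosolic members was -0.01 and that of all 15 mitochondrial members -0.006 under both scalings. These sets are unlike, because the members include 4 genes below background. Under quantile normalization the members above background alone had medians of -0.03 (cytosolic) and -0.05 (mitochondrial), beside -0.009 for all genes above background.

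**Figure D4:**
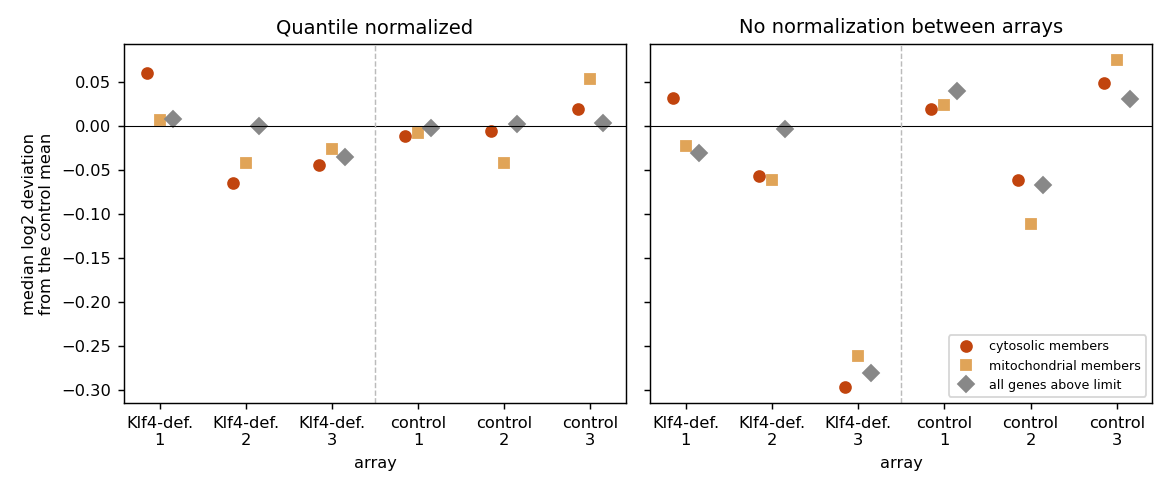
Median log2 deviation from the control mean (y axis) in each array for cytosolic members (circles), mitochondrial members (squares) and all genes above background (diamonds), after quantile normalization (left) and with none (right). With no normalization Klf4-deficient array 3 is the lowest for all 3 sets, at -0.30 (cytosolic), -0.26 (mitochondrial) and -0.28 (all genes), while after quantile normalization all genes stay between -0.03 and 0.008 in every array and the enzymes between -0.06 and 0.06.

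Markers of other marrow cells were unequal between the same arrays. The erythroid score (13 of 17 fixed markers measured, 9 above background on all arrays, Epb42 and Rhd on none) lay at 0.19, 0.91 and 1.55 in the arrays labelled Klf4-deficient and between -0.41 and 0.21 in the controls. Its summed signal was 43069 to 58589 in the arrays labelled Klf4-deficient and 35248 to 43069 in the controls. The monocyte and macrophage score (13 of 15 markers measured, 6 above background on all arrays, Cd5l on none) lay at 0.40, 0.84 and 1.37 in the arrays labelled Klf4-deficient and between -0.11 and 0.08 in the controls. Its summed signal was 4668 to 11445 in the arrays labelled Klf4-deficient and 3794 to 5106 in the controls. The neutrophil score (13 of 13 measured, 12 above background on all arrays, Mmp8 on none) lay at -0.18, -0.05 and 1.22 in the arrays labelled Klf4-deficient and between -0.27 and 0.31 in the controls, with summed signals of 76291 to 144689 and, in the controls, 74918 to 104462. The NK and cytotoxic score (11 of 12 measured, 4 above background on all arrays, and Ncr1, Gzmb, Klrk1 and Eomes on none) lay at 0.31, 0.54 and 0.75 in the arrays labelled Klf4-deficient and between -0.11 and 0.12 in the controls, with summed signals of 2657 to 3535 and, in the controls, 2104 to 3126. The B lineage score (7 of 9 measured, 3 above background on all arrays, Pax5 on none) overlapped, from -0.06 to 0.09 in the arrays labelled Klf4-deficient and from -0.24 to 0.14 in the controls, with summed signals of 582 to 814 and, in the controls, 692 to 917. The double-positive T cell score (10 of 12 measured) was lower in every array labelled Klf4-deficient, at -0.16, -0.06 and -0.14, against -0.03 to 0.03 in the controls, with summed signals of 67814 to 77485 and, in the controls, 80685 to 85381. With the mean of the erythroid and macrophage scores as a covariate the cytosolic median was 0.07 and the mitochondrial median -0.003, and 0 members passed. That mean was higher in every array labelled Klf4-deficient than in any control, so the covariate and the label are largely confounded. In bulk samples fewer cells of a type and less RNA per cell cannot be told apart, and the part of these cells in the synthetase values was not tested further.

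Genes that work beside the synthetases came from fixed lists, and 0 of their members passed the adjusted threshold in limma. The scaffold of the multisynthetase complex lay above 0 in 3 of 3 genes. Eef1e1, also known as Aimp3, had log2 signals of 9.31, 9.14 and 9.11 in the arrays labelled Klf4-deficient, against 9.05, 8.78 and 8.83 in the controls, with no overlap. Its difference was 0.30 ± 0.10 (SE, fold 1.23, adjusted p = 0.578). Aimp2 had 9.68, 9.48 and 9.49 in the arrays labelled Klf4-deficient and 9.30, 9.45 and 9.49 in the controls (0.13 ± 0.08). Aimp1 had 11.40, 11.33 and 11.17 in the arrays labelled Klf4-deficient and 11.30, 11.32 and 11.28 in the controls (0.002 ± 0.06), so both overlapped between the groups. The median of the scaffold list was 0.13, and it was 0.07 when Klf4-deficient array 1 was left out and 0.03 with no normalization. Among the 4 partners of mitochondrial aminoacylation the median was -0.08, and it was -0.17 with no normalization, -0.13 when Klf4-deficient array 1 was left out and -0.02 when Klf4-deficient array 3 was. Gatc, Gatb and Qrsl1 encode the subunits of the enzyme that makes glutaminyl-tRNA in mitochondria. Gatc had 10.19, 10.15 and 10.01 in the arrays labelled Klf4-deficient and 10.20, 10.28 and 10.20 in the controls, with no overlap (-0.12 ± 0.06). Gatb had 7.40, 7.20 and 6.99 in the arrays labelled Klf4-deficient and 7.30, 7.28 and 7.31 in the controls (-0.10 ± 0.11), and Klf4-deficient array 3 was its lowest. For Qrsl1 the values were 10.16, 10.03 and 10.03 in the arrays labelled Klf4-deficient and 10.00, 10.14 and 10.24 in the controls, which overlapped (-0.05 ± 0.08). The deacylation and editing list held 4 of 7 measured genes, with a median of -0.13 (-0.23 with no normalization, -0.07 without control array 1), and the groups overlapped in its 3 named members. Prorsd1 had 10.20, 10.10 and 10.07 in the arrays labelled Klf4-deficient and 10.16, 10.31 and 10.17 in the controls (-0.09 ± 0.06). Dtd1 and Dtd2 encode deacylases that remove D-amino acids and other wrong residues from tRNA. Dtd2 had 6.10, 6.59 and 5.85 in the arrays labelled Klf4-deficient and 6.22, 6.80 and 6.72 in the controls (-0.40 ± 0.27). Dtd1 had 7.28, 7.37 and 7.41 in the arrays labelled Klf4-deficient and 7.86, 7.42 and 7.32 in the controls (-0.18 ± 0.16). Tarsl2, a threonyl enzyme outside the symbol rule, also overlapped, with 6.44, 6.61 and 6.56 in the arrays labelled Klf4-deficient and 6.44, 6.36 and 6.63 in the controls (0.06 ± 0.11).

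The fixed list for tRNA transcription and end processing had a median of -0.04 over 29 of 30 measured genes, with 13 above 0 and 16 below. That median was -0.13 with no normalization, -0.07 without Klf4-deficient array 1 and -0.0086 without control array 1. At an unadjusted p under 0.05, 3 of the 29 were lower and 1 higher, beside 4.1% lower and 3.49% higher of all genes, and the higher one, Ssb, lay below background. Polr3b, a core subunit of RNA polymerase III, had log2 signals of 9.51, 9.49 and 9.41 in the arrays labelled Klf4-deficient, against 9.69, 9.77 and 9.75 in the controls, with no overlap (-0.27 ± 0.04 SE, adjusted p = 0.364). Brf2, a factor that places the polymerase at a class of promoters, had 8.23, 8.08 and 7.95 in the arrays labelled Klf4-deficient and 8.48, 8.42 and 8.34 in the controls (-0.33 ± 0.09, adjusted p = 0.512). Gtf3c3, a subunit of the tRNA gene factor TFIIIC, had 8.95, 8.98 and 8.71 in the arrays labelled Klf4-deficient and 9.16, 9.17 and 9.37 in the controls (-0.35 ± 0.10, adjusted p = 0.544). In Brf2 and Gtf3c3 all labelled-deficient arrays were lower than the controls, while Brf1 of the same list overlapped between the groups (-0.05 ± 0.09). Of the 29 genes, 4 (13.8%) had all labelled-deficient arrays lower, namely Polr3b, Brf2, Gtf3c3 and Pop4 (-0.04 ± 0.02), and 1 (3.45%) had them all higher. The shares were 6.11% lower and 5.45% higher over all genes, and 9.64% and 7.71% over genes above background. The 10 elongation factors had a median of -0.006, from -0.04 to 0.03 leaving out each array in turn and -0.10 with no normalization. All labelled-deficient arrays were lower for 1 of the 10 (10%), Gfm1, beside 9.64% of all genes above background. Gfm1, the mitochondrial elongation factor G, had 7.22, 7.19 and 7.14 in the arrays labelled Klf4-deficient and 7.28, 7.44 and 7.33 in the controls (-0.17 ± 0.06, adjusted p = 0.638). Eef1d, a subunit of the exchange factor of elongation factor 1, had 13.00, 12.87 and 12.93 in the arrays labelled Klf4-deficient and 12.85, 12.86 and 12.88 in the controls (0.07 ± 0.04). Eef2k, the kinase of elongation factor 2, had 7.47, 7.30 and 7.21 in the arrays labelled Klf4-deficient and 7.58, 7.36 and 7.45 in the controls, which overlapped (-0.14 ± 0.10).

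The amino acid response list around Atf4, measured for 26 of 28 genes, had 19 genes above 0 and 7 below and a median of 0.14 (0.07 with no normalization, 0.12 to 0.15 leaving out each array in turn). At an unadjusted p under 0.05, 3 of the 26 were higher and 2 lower, beside 3.49% higher and 4.1% lower of all genes, and of these Slc3a2, Trib3 and Slc7a1 lay below background by their mean. Ddit3, which encodes the stress factor CHOP, had log2 signals of 9.110, 9.185 and 9.131 in the arrays labelled Klf4-deficient, against 8.996, 9.043 and 8.981 in the controls (0.14 ± 0.03 SE, adjusted p = 0.452). Slc7a11, the cystine transporter, had 8.783, 9.191 and 9.119 in the arrays labelled Klf4-deficient, against 9.758, 9.503 and 9.874 in the controls (-0.68 ± 0.15, adjusted p = 0.453). Both genes had groups that did not overlap, in opposite directions, and the controls were the higher for Slc7a11. Over the 26 genes, 3 (11.5%) had all labelled-deficient arrays higher and 2 (7.69%) had them all lower. Beside these, the shares were 5.45% higher and 6.11% lower over all genes, and 7.71% and 9.64% over genes above background. Eif4ebp1, a repressor of cap-dependent translation, overlapped between the groups, with 8.51, 8.16 and 8.86 in the arrays labelled Klf4-deficient and 8.20, 8.18 and 7.96 in the controls (0.40 ± 0.20). Set against this list, the cytosolic synthetases, many of them known Atf4 targets, had a median of -0.02, and whether the lists differ was not tested.

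**Figure D5:**
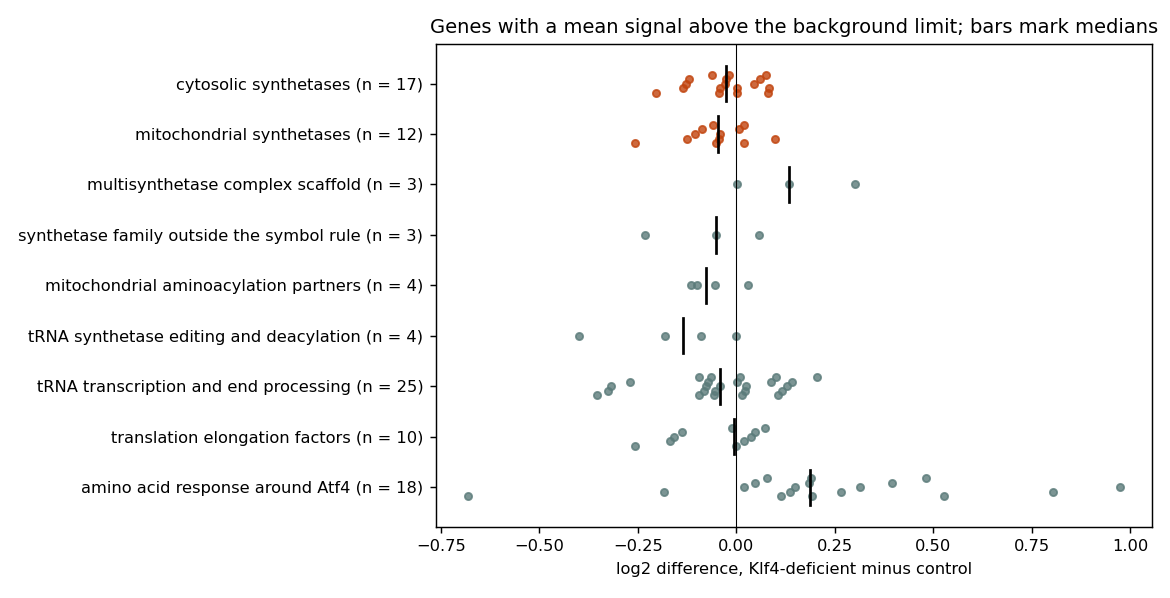
Log2 differences (Klf4-deficient minus control, x axis) of single genes (points) and their medians (bars) for cytosolic and mitochondrial synthetases and for 7 fixed lists, with genes whose mean lay above the background limit. Synthetase points stay between -0.26 and 0.10, while those of the amino acid response list run from -0.68 to 0.97. The upper end is Asns (0.97 ± 0.59 SE), whose groups overlapped and whose highest signal was in Klf4-deficient array 3.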

How the data were processed

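Per the submitters' processing notes, BeadStudio (version not given) was used by the authors, and the deposited unit is linear probe intensity, with values below 0. How background was subtracted, whether arrays were normalized and the genome build are not stated in the labels. Here negative values were raised to 0, an offset of 16 was added, and arrays were quantile normalized after taking log2. The table held 45281 probes: 34885 had 1 gene symbol and entered the gene tests, 18 had several and 10378 had none here. Each gene was read from its brightest probe. The 19057 genes were tested in limma 3.58.1 under R 4.3.3 (lmFit, eBayes, variance trend), with p-values adjusted by Benjamini-Hochberg across all genes, or across all probes for probe comparisons, at 0.05. Background was 3 SD of the negative values mirrored around 0 (mean limit 22.6). On simulated data, changes placed in brighter genes were recovered for 64 of 100 genes at 1 on the log2 scale and 22 of 100 at 0.5, with 3 false calls.

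Per-array values were given for any member past the threshold, up to 8 cytosolic and 6 mitochondrial members above background by smallest p, up to 4 with disagreeing probes, Wars, Gars, Kars, Mars1, Eprs and Pars2, and up to 3 genes per fixed list. The members and lists were chosen with earlier results of these data known. The alternatives were other scalings, offsets, probe choices and variance models, a filter on dim genes, a block for the replicate number, array weights, a marker covariate and leaving out each array. Replicate numbers were not taken to pair the arrays.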

Additional observations from a re-analysis of the deposited data

How the results depend on the processing

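Over 18 alternatives 0 members passed in limma. Of 557 member values, 481 kept the reported direction and 76 did not. These include the 4 members below background. For Yars2, whose reported difference was 0 and so had no direction, 15 of 16 values were counted as kept. With arrays centred on their median, 0 members had all Klf4-deficient arrays lower, and the medians were -0.092 (cytosolic) and -0.086 (mitochondrial). With no normalization these were 2, -0.118 and -0.111. Averaging the probes of a gene gave 1 member with all Klf4-deficient arrays higher and a mitochondrial median of 0. These averages include probes below background, among them a Lars2 probe that differed by 0.62, while the Lars2 probe above background differed by -0.05. Every probe on its own gave 1 higher (a Lars2 probe below background) and 7 lower (1 below background, of Wars2). The marker covariate gave a cytosolic median of 0.073. Leaving out each array gave 0 to 0 called, 0 to 4 higher, 5 to 9 lower, cytosolic medians from -0.065 (without Klf4-deficient array 1) to 0.037 (without control array 1), mitochondrial medians from -0.050 to -0.0024, and cytosolic minus mitochondrial values from -0.020 to 0.048. Smaller groups separate more easily in any gene, so these higher and lower counts do not compare with the shares over all arrays. The cause of these shifts was not tested. With the replicate number as a block 0 members passed, the medians stayed -0.023 and -0.040, and the adjusted p of Lars was 0.694. Across genes, same-numbered arrays' deviations correlated at 0.184, -0.0435 and -0.176. The highest correlation, 0.26, was between Klf4-deficient array 3 and control array 2. Whether same-numbered arrays were handled together cannot be read from these values. Signal near background limits what can be read for Yars, Hars2, Nars2 and Yars2.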
